A study of Rattus norvegicus with 23 samples.

Results

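MicroRNAs are short RNAs that guide Argonaute proteins to messenger RNAs, mainly through the seed, bases 2 to 8 from the 5′ end, and lower the output of those messages. Each is cut from a hairpin precursor whose 5p and 3p arms can both be loaded, usually to unequal extents. Sperm carry microRNAs into the egg, and in mice the sperm levels of miR-375, miR-204, miR-193, miR-532, miR-29c and miR-32 have been reported to change when the father was stressed. The miRNAs of these hairpins were followed in rat sperm after ozone, an oxidant air pollutant that also acts as a whole-body stressor. They were chosen by name, as rows for miR-375, miR-204, miR-193a, miR-193b, miR-532, miR-29c or miR-32 with a value above 0 in at least 8 of the 23 samples. Of the 425 miRNA rows, 9 bore such a name and 8 met the detection rule: miR-375-3p, both arms of miR-204, miR-532 and miR-32, and miR-29c-3p. The ninth, miR-193a-5p, was above 0 in 7 samples and was left out, so the set holds no miR-193 arm.

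Sperm came from the cauda epididymis, the storage segment of the epididymal duct, of 23 male Long-Evans rats, each a separate animal. Of the 8 rats per group in the design text, 7 of the air group were analysed here. They breathed filtered air; in the 0.4 ppm and 0.8 ppm ozone groups, 8 rats each breathed ozone at chamber means of 0.401 and 0.798 ppm. All were exposed for 4 h on 3 days of a first week and 2 days of a second. Small RNA of whole sperm pellets was sequenced, and the labels give no age. Values are the authors' normalised reads per miRNA, called normalised reads here. Dividing each library by its smallest step gave back whole reads, with a median of 628271 per library and a range of 213839 to 1286613, and 1 read was worth 0.470 to 2.53 normalised reads. The germ-cell markers miR-34c-5p, miR-34b-3p, miR-34b-5p and miR-449a-5p held 30.5% to 47.4% of the miRNA table in air, 23.4% to 43.7% at 0.4 ppm and 23.9% to 50.6% at 0.8 ppm. Markers of other cells were also present, with 5 of 5 epithelial miRNAs at 0.680% to 1.45%, 1.05% to 3.21% and 0.693% to 2.93% of the table in the same order, and 3 of 4 muscle and stroma miRNAs at 1.53% to 2.79%, 1.84% to 4.17% and 1.59% to 11.3%. In bulk samples such as these, fewer cells of a type and less RNA per cell cannot be told apart.

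The mature sequences show which regulators these are, and capitals mark the seed. They are RefSeq's for the rat assembly GRCr8, in which all 8 arms were matched; the submitters' processing notes name the build rn6, so the positions below locate the genes and were not used to place reads.
miR-375-3p: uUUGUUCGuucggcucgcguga
miR-204-5p: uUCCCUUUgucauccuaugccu
miR-204-3p: gCUGGGAAggcaaagggacguu
miR-532-5p: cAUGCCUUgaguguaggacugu
miR-532-3p: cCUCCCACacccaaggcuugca
miR-29c-3p: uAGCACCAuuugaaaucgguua
miR-32-5p: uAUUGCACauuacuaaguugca
miR-32-3p: gCAAUUUAgugugugugauauu
All are 22 bases long. Their normalised reads were compared without a length correction, and unequal capture by the library kit was not measured. The 8 arms carry 8 different seeds. The gene of miR-375 lies at chr9:83906582-83906656 on the minus strand, within the span of Cryba2, which encodes a lens crystallin. That of miR-204 lies at chr1:229743461-229743570 on the plus strand, within Trpm3, which encodes a cation channel. miR-532 lies at chrX:17919185-17919263 on the plus strand, within Clcn5, which encodes a chloride transporter. miR-32 lies at chr5:76391285-76391354 on the minus strand, within Tmem245, and miR-29c at chr13:109099359-109099446 on the plus strand, within the long noncoding gene LOC102550527.

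The 8 arms spanned more than 3 orders of magnitude in level. miR-375-3p ranked 13 of 425 rows with 2.38% ± 0.714 of the table (SD, n = 23). It held 90.9% of the summed level of the 8 arms. miR-204-5p ranked 48 with 0.185% ± 0.0509, and miR-532-5p ranked 109 with 0.0241% ± 0.00619 (SD, n = 23). miR-32-3p ranked 151, miR-29c-3p 203, miR-32-5p 209, miR-532-3p 226 and miR-204-3p 256. In the median library the first 3 of these arms rested on 15183, 1076 and 161 reads, and the last 5 on 41, 16, 11, 12 and 5 reads. miR-193a-5p had 10 reads in total among the 15737599 of the table, and at most 3 in 1 library. At the boundary of the rule, miR-193a-5p therefore stood just outside with 7 of 23 samples, and miR-29c-3p was the nearest inside with 22 of 23.

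**Figure D1:**
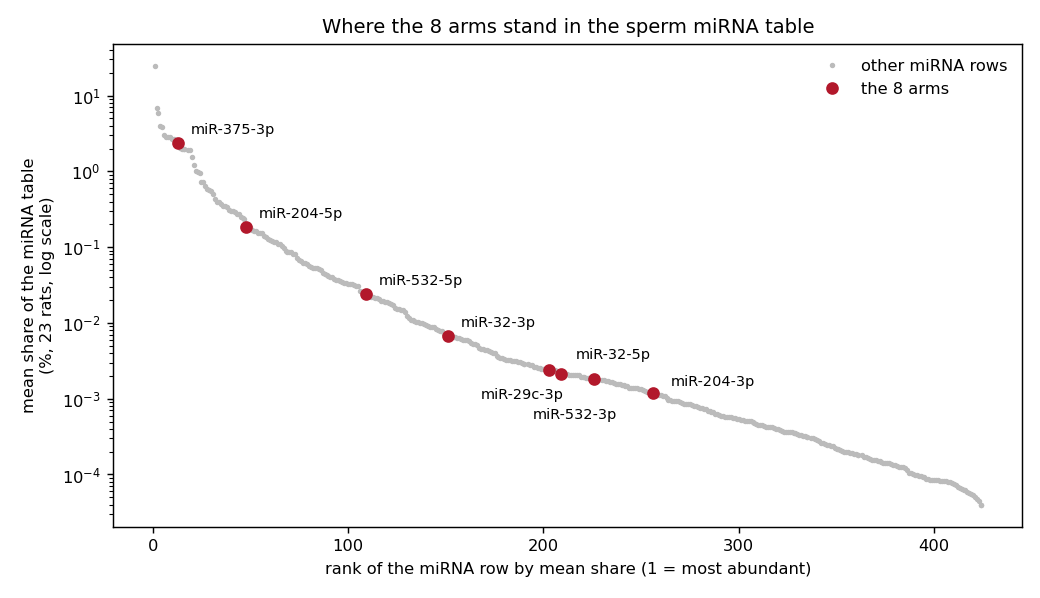
Each point is 1 miRNA row of the table, with its rank by mean share on the x axis and its mean share of the miRNA table over 23 rats in percent on a log y axis; the 8 arms are in red. miR-375-3p stands at rank 13 with 2.38%, and the other arms follow down to miR-204-3p at rank 256.

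miR-375-3p, known in rodents for restraining insulin secretion in pancreatic islet cells, had a lowest, median and highest value of 11344, 13950 and 24563 normalised reads in air, 8471, 10876 and 31284 at 0.4 ppm, and 6714, 15369 and 21269 at 0.8 ppm. The 3 groups overlapped almost entirely, and both the widest spread and the highest rat were at 0.4 ppm. The mean was 15052 ± 4527 over the 7 air rats, 14680 ± 8207 over the 8 rats at 0.4 ppm and 14826 ± 4341 over the 8 at 0.8 ppm (SD). The log2 fold change on log2(value + 1) was -0.15 ± 0.25 (SE) at 0.4 ppm against air, with a 95% interval of -0.66 to 0.37 (limma adjusted p = 0.92). The value for 0.8 ppm against air was -0.04 ± 0.25, with an interval of -0.56 to 0.47 (limma adjusted p = 0.993). As folds, the intervals ran from 0.633 to 1.29 at 0.4 ppm and from 0.68 to 1.38 at 0.8 ppm. Of its variance within groups, 0.05% was what read counting alone would give, so the spread was between rats or libraries.

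At 0.4 ppm, 2 rats, replicates 3 and 5, held 23317 and 31284 normalised reads of miR-375-3p, and the other 6 held 8471 to 13395. Replicate 6 in air stood at 24563 above the other 6, and replicate 7 at 0.8 ppm was that group's highest at 21269. In these 4 libraries the germ-cell markers held 34.7%, 23.4%, 30.5% and 23.9% of the table. The lowest share of each group, 30.5% in air, 23.4% at 0.4 ppm and 23.9% at 0.8 ppm, was among these 4. At 0.4 ppm, replicates 1, 2 and 6 had shares of 35.7%, 35.8% and 29.5% beside 8471, 9259 and 9964 normalised reads of miR-375-3p. Without replicate 5 the fold change at 0.4 ppm against air was -0.32 (log2; limma adjusted p = 0.807), and without replicate 6 in air it was -0.02 (0.966). The lowest miR-375-3p level, 6714, was that of the shallowest library, 0.8 ppm replicate 5, whose germ-cell markers held 33.0%. Without that rat the fold change at 0.8 ppm against air was 0.11, and without replicate 6 in air it was 0.08 (log2; limma adjusted p = 0.996 for both). Whether cell makeup or depth has a part in the spread of miR-375-3p was not tested.

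miR-204-5p, abundant in the retinal pigment epithelium and other secretory or barrier epithelia, had 845, 1082 and 1626 normalised reads as its lowest, median and highest value in air, 629, 1179 and 1881 at 0.4 ppm, and 749, 1010 and 2005 at 0.8 ppm. The groups overlapped throughout. Its log2 fold change was -0.03 ± 0.23 (SE) at 0.4 ppm against air, with a 95% interval of -0.50 to 0.45 (limma adjusted p = 0.977). For 0.8 ppm against air it was -0.10 ± 0.23, with an interval of -0.57 to 0.38 (limma adjusted p = 0.993). Without the highest rat, 0.8 ppm replicate 7, that value was -0.23 (limma adjusted p = 0.959). In that library the muscle and stroma markers held 11.3% of the table, against at most 4.17% in every other library. Nearly all of this list's share is miR-143-3p, with a mean of 2.70%, beside 0.008% for miR-145-5p and 0.003% for miR-1-3p (n = 23). The part of these markers was not tested.

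The passenger arm miR-204-3p was near the detection limit, with 1 to 37 reads per library. It had 1.69, 5.30 and 6.56 normalised reads as its lowest, median and highest value in air, 2.03, 7.43 and 32.4 at 0.4 ppm, and 3.80, 5.34 and 10.1 at 0.8 ppm. Among the 8 arms it had the largest point estimate of a difference, at 0.4 ppm against air: a log2 fold change of 0.76 ± 0.39 (SE) with a 95% interval of -0.03 to 1.55 (limma adjusted p = 0.784). The 1 rat at 32.4, 0.4 ppm replicate 2, carried much of it, and without that rat the value was 0.48 (limma adjusted p = 0.89). The higher concentration gave 0.39 ± 0.39 against air (limma adjusted p = 0.993).

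miR-532-5p comes from an X-linked miRNA cluster within Clcn5. It had 68.3, 150.9 and 174 normalised reads as its lowest, median and highest value in air, 66.5, 146.5 and 199 at 0.4 ppm, and 120.5, 147.5 and 192 at 0.8 ppm. The group medians were close to one another, and this arm had the smallest spread of the 8, with a within-group SD of 0.40 on the log2 scale against a median of 0.66 over the 407 miRNAs tested. Its log2 fold change was 0.06 ± 0.22 (SE) at 0.4 ppm against air and 0.20 ± 0.22 at 0.8 ppm against air, with 95% intervals of -0.39 to 0.52 and -0.26 to 0.65 (limma adjusted p = 0.946 and 0.993). miR-532-3p, the arm named in the mouse stress work, was low at 3 to 32 reads per library. It had 5.08, 12.7 and 17.7 normalised reads as its lowest, median and highest value in air, 3.29, 8.37 and 11.4 at 0.4 ppm, and 4.202, 12.2 and 17.5 at 0.8 ppm. The lowest of the 23 values and the lowest group median were at 0.4 ppm, and the 3 groups overlapped. The log2 fold change was -0.55 ± 0.32 (SE) at 0.4 ppm against air (95% interval -1.19 to 0.10, limma adjusted p = 0.802), -0.01 ± 0.32 at 0.8 ppm against air (0.993) and 0.54 ± 0.31 at 0.8 ppm against 0.4 ppm (95% interval -0.08 to 1.16, limma adjusted p = 0.729).

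**Figure D2:**
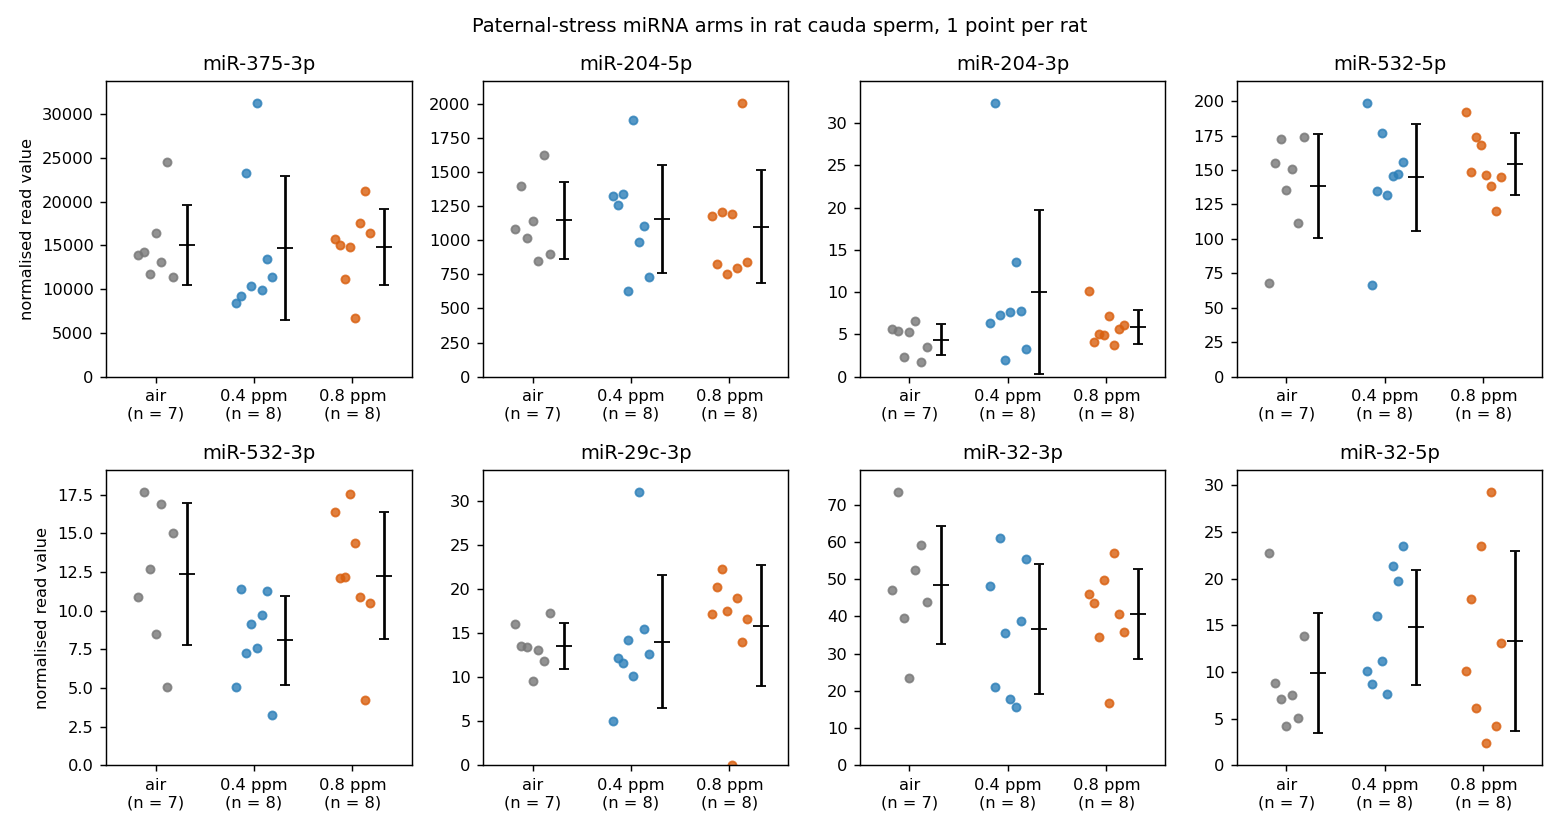
Normalised reads of each of the 8 arms on linear axes from 0, with 1 point per rat in air (n = 7), 0.4 ppm (n = 8) and 0.8 ppm ozone (n = 8), and the mean with SD as a black bar beside each group. The groups overlap for every arm, and single rats stand apart for miR-375-3p, miR-204-3p, miR-204-5p and miR-29c-3p.

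miR-29c-3p belongs to the miR-29 family, which targets collagen and DNA methyltransferase messages. It had 9.54, 13.5 and 17.3 normalised reads as its lowest, median and highest value in air, 5.06, 12.5 and 31.1 at 0.4 ppm, and 0, 17.3 and 22.4 at 0.8 ppm. The 0 was in the shallowest library, 0.8 ppm replicate 5, where 0 of 213839 reads allows up to 7.19 normalised reads (3 reads, counting error only). The other 7 rats at 0.8 ppm lay between 14.0 and 22.4. In the unweighted limma fit on log2(value + 1), that 1 library set the direction of the estimate. The log2 fold change at 0.8 ppm against air was -0.13 ± 0.45 (SE, limma adjusted p = 0.993), and without that library 0.40 (limma adjusted p = 0.996). At 0.4 ppm against air it was -0.07 ± 0.45, with a 95% interval of -0.98 to 0.84 (limma adjusted p = 0.974).

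miR-32 lies in an intron of Tmem245 in mammals, and its 5p arm shares the seed of miR-25 and miR-92. miR-32-5p had 4.24, 7.50 and 22.8 normalised reads as its lowest, median and highest value in air, 7.60, 13.6 and 23.5 at 0.4 ppm, and 2.40, 11.6 and 29.3 at 0.8 ppm. miR-32-3p had 23.3, 47.1 and 73.5 in air, 15.5, 37.2 and 60.9 at 0.4 ppm, and 16.8, 42.2 and 57.0 at 0.8 ppm. At 0.4 ppm against air the point estimates of the arms had opposite signs, with a log2 fold change of 0.61 ± 0.41 (SE, 95% interval -0.21 to 1.43, limma adjusted p = 0.812) for miR-32-5p and -0.48 ± 0.30 (95% interval -1.08 to 0.12, limma adjusted p = 0.802) for miR-32-3p. Against air, 0.8 ppm gave 0.24 ± 0.41 and -0.25 ± 0.30 (limma adjusted p = 0.993 for both).

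None of the 8 arms passed the limma test, adjusted over all 407 tested miRNAs at 0.05, in any comparison. At 0.4 ppm against air 0 of 8 were called, and so were 0% of the 407; at an unadjusted p under 0.05 there were 0 of 8 and 5.41% of the 407. At 0.8 ppm against air 0 of 8 and 0% were called, with 0 of 8 and 2.21% unadjusted, and at 0.8 ppm against 0.4 ppm 0 of 8 and 0%, with 0 of 8 and 3.69% unadjusted. edgeR and DESeq2 on the recovered reads also called 0 of 8 arms, and 0% of the 407 miRNAs, in each comparison. At an unadjusted p under 0.05 at 0.4 ppm against air, edgeR had 2 of 8 arms beside 6.39% of the 407, and DESeq2 had 2 of 8 beside 7.62%. The same arms were named by both: miR-204-3p, with log2 fold changes of 1.06 (edgeR adjusted p = 0.745) and 1.15 (DESeq2 adjusted p = 0.601), and miR-532-3p, with -0.68 (0.745) and -0.67 (0.626). For 0.8 ppm against air both tools had 0 of 8, beside 3.69% and 4.42%. For 0.8 ppm against 0.4 ppm edgeR had 0 of 8 beside 4.42%, and DESeq2 had 1 of 8, miR-532-3p at 0.65 (adjusted p = 0.644), beside 6.14%. limma with library weights called 0 of 8 arms beside 0.491%, 0.737% and 0% of the 407 in the 3 comparisons. Its unadjusted p was under 0.05 for 1 of 8 arms in each, beside 9.83%, 15% and 21.9%. The groups overlapped for 8 of 8 arms in every comparison, and groups without overlap made up 0% of the 407. The median log2 fold change of the 8 arms was -0.05 at 0.4 ppm against air, -0.03 at 0.8 ppm against air and 0.02 at 0.8 ppm against 0.4 ppm, beside medians of -0.02, 0.01 and 0.02 over the 407. The point estimates of the 8 arms ran from -0.55 to 0.76, -0.25 to 0.39 and -0.37 to 0.54 in the same order. The first and second comparisons share the air rats, so their values are not independent. What the data can bound differs by level. For miR-375-3p, miR-204-5p and miR-532-5p, no 95% interval of a fold against air reached below 0.633 (miR-375-3p at 0.4 ppm) or above 1.57 (miR-532-5p at 0.8 ppm). For the other 5 arms the intervals reached as low as 0.438 (miR-532-3p at 0.4 ppm) and as high as 2.93 (miR-204-3p at 0.4 ppm). Read counting alone would give 75.2% of the within-group variance of miR-532-3p, 39.35% of that of miR-29c-3p, 22.3% for miR-204-3p, 20.97% for miR-32-5p and 17.9% for miR-32-3p.

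**Figure D3:**
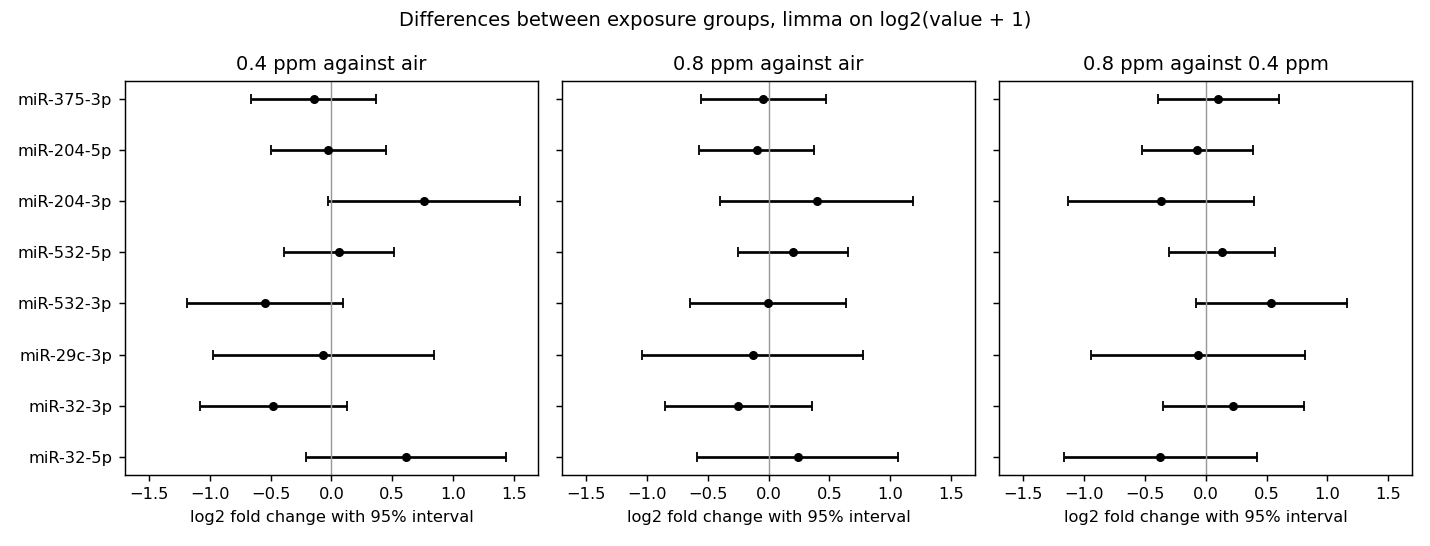
Log2 fold change on log2(value + 1) with its 95% interval from limma (x axis) for the 8 arms (y axis) in 3 comparisons, 0.4 ppm against air, 0.8 ppm against air and 0.8 ppm against 0.4 ppm. Every interval includes 0, and the abundant arms miR-375-3p, miR-204-5p and miR-532-5p have the narrowest.

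The balance of the arms was set out for the hairpins with both arms measured, because the ratio within a hairpin depends little on library scaling. Hairpins are printed 5′ to 3′ with the annotated arms in capitals, the 5p arm first.
Mir204: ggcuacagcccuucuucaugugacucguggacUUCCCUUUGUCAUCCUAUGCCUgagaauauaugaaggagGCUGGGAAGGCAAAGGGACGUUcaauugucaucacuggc
Mir532: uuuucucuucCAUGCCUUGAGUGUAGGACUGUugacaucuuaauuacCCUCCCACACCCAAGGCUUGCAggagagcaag
Mir32: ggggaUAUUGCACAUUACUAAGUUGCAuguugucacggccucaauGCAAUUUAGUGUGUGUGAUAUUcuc
The 5p arm held 99.4% ± 0.48 of the miR-204 signal and 92.8% ± 3.1 of the miR-532 signal (SD, n = 23), and was the higher arm in 23 of 23 rats for both. miR-32 was the other way round: its 5p arm held 23.4% ± 11.4 (SD, n = 23), and the 3p arm was the higher in 22 of 23 rats. Across the 111 hairpins with both arms tested, the 3p arm held more than 50% on average in 43.

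The 5p share of miR-32 had a lowest, median and highest value of 7.89%, 15.2% and 32.6% in air, 17.4%, 29.6% and 57.9% at 0.4 ppm, and 9.37%, 22.4% and 33.96% at 0.8 ppm. Rats at 0.4 ppm lay mostly above those in air, and the ranges overlapped between 17.4% and 32.6%. The log2 ratio of the arms differed by 1.09 ± 0.40 (SE) at 0.4 ppm against air, with a 95% interval of 0.27 to 1.91. Over the 111 hairpins that did not pass (limma adjusted p = 0.63), and neither did any other hairpin, so 0% were called. At an unadjusted p under 0.05 there were 2 of the 3 hairpins described here, miR-32 and miR-204, and 5 of the 111, or 4.5%. Without 0.4 ppm replicate 6, the rat at 57.9%, which had 11 and 8 reads of the 5p and 3p arms, the difference was 0.86 (limma adjusted p = 0.968). For 0.8 ppm against air it was 0.49 ± 0.40 (limma adjusted p = 0.944), and the concentrations differed from each other by -0.60 ± 0.38 at 0.8 ppm against 0.4 ppm (limma adjusted p = 0.872). The miR-204 ratio differed by -0.79 ± 0.37 at 0.4 ppm against air, with a 95% interval of -1.56 to -0.02 (limma adjusted p = 0.816), and by -0.54 without 0.4 ppm replicate 2 (0.708). The miR-532 ratio differed by 0.61 ± 0.33 (limma adjusted p = 0.868). At 0.4 ppm against air, adding 5 instead of 1 to each value gave 0.865 for miR-32 and -0.545 for miR-204. Their limma adjusted p was 0.417 and 0.803.

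**Figure D4:**
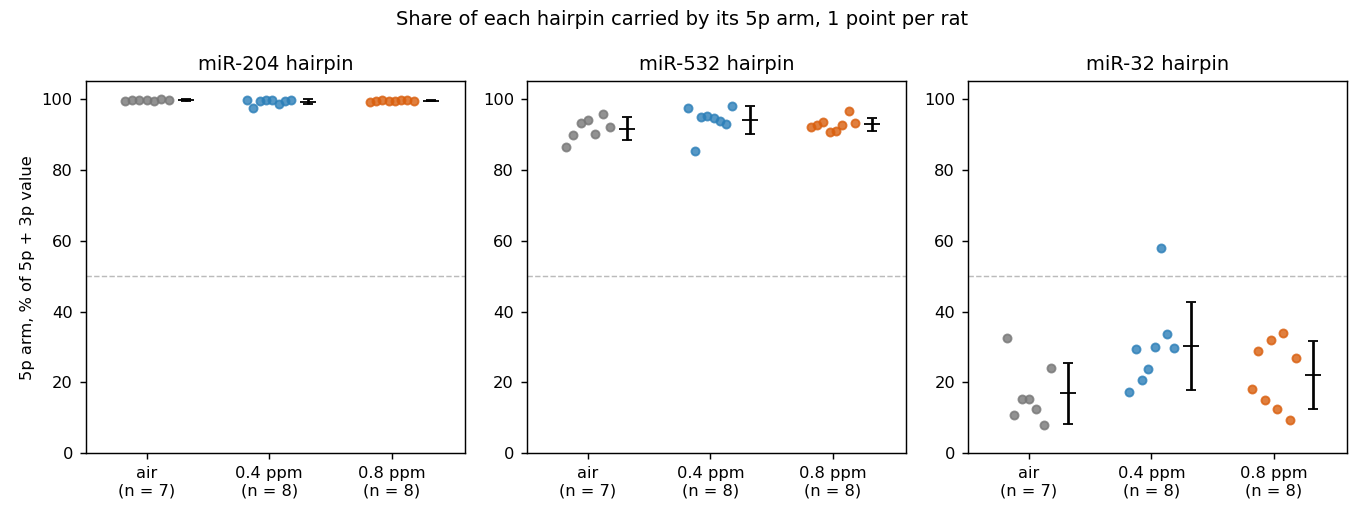
Share of a hairpin's signal held by its 5p arm, in percent of 5p plus 3p (y axis), with 1 point per rat in air (n = 7), 0.4 ppm (n = 8) and 0.8 ppm (n = 8) and the mean with SD as a black bar; the dashed line marks 50%. miR-204 and miR-532 lie near the top in all rats, and miR-32 lies below the line in 22 of 23.

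Since targets are read through the seed, an arm acts within a pool of miRNAs that share it. Among the 396 rows with a RefSeq sequence, no other row carried the seed of miR-375-3p, miR-204-3p, miR-532-3p or miR-32-3p. miR-204-5p shares UCCCUUU with miR-211-5p and held 99.6% ± 0.239 of their pool (SD, n = 23). miR-532-5p shares AUGCCUU with miR-511-5p, a miRNA of the macrophage receptor gene Mrc1, and held 97.9% ± 1.43. miR-29c-3p shares AGCACCA with miR-29a-3p and miR-29b-3p and was a minor member, with 3.49% ± 1.38 of a pool that miR-29a-3p dominated at 402 ± 117 normalised reads. miR-32-5p shares AUUGCAC with miR-25-3p, miR-92a-3p, miR-92b-3p and miR-363-3p and held 0.077% ± 0.056 of a pool led by miR-25-3p at 17310 ± 3733 (all SD, n = 23). These relatives are shown because their sequences set how firmly reads can be told apart.
miR-29a-3p: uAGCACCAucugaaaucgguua
miR-211-5p: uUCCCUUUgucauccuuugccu
miR-25-3p: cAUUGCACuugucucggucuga
Counted from the 5′ end, miR-29c-3p and miR-29a-3p differ at 1 base, U10C, and miR-204-5p and miR-211-5p at 1 base, A17U. No source used here says how many mismatches the authors' alignment allowed, so the low values of miR-29c-3p may hold reads of miR-29a-3p and are uncertain.

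By group, the share of miR-29c-3p in its pool was 3.49% ± 0.473 in the 7 air rats, 3.62% ± 1.498 in the 8 rats at 0.4 ppm and 3.35% ± 1.86 in the 8 at 0.8 ppm (SD). That of miR-32-5p was 0.055% ± 0.053, 0.099% ± 0.057 and 0.073% ± 0.057 in the same order. None of the 8 tested seed relatives passed the limma test in any comparison, beside 0% of the 407. At an unadjusted limma p under 0.05 there were 1 of 8 at 0.4 ppm and 0 of 8 at 0.8 ppm against air, beside 5.41% and 2.21%. The median log2 fold changes of these relatives were -0.04 at 0.4 ppm and 0.01 at 0.8 ppm against air, beside -0.02 and 0.01 over the 407. miR-25-3p had -0.39 ± 0.18 (SE) at 0.4 ppm against air (limma adjusted p = 0.784).

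In mice, other sperm miRNAs are tied to paternal stress too, and 12 such rows were tested here. None passed at 0.4 ppm or at 0.8 ppm against air, in either direction, beside 0% of the 407. At an unadjusted limma p under 0.05 there were 2 and 1 of the 12, beside 5.41% and 2.21%. The median log2 fold changes of the 12 were -0.20 and -0.08, beside -0.02 and 0.01 over the 407. The germ-cell markers miR-34c-5p, miR-34b-3p, miR-34b-5p and miR-449a-5p are among the 12, with -0.44, -0.20, -0.44 and -0.38 at 0.4 ppm. miR-200b-3p, an epithelial miRNA, had the highest point estimate of the 12 at both concentrations, with log2 fold changes of 0.57 ± 0.26 (SE) at each (limma adjusted p = 0.784 and 0.993). It averaged 154 ± 42.9 normalised reads in the 7 air rats, 243 ± 112 in the 8 rats at 0.4 ppm and 232 ± 77.0 in the 8 at 0.8 ppm (SD). The other epithelial markers, miR-429, miR-141-3p, miR-200a-3p and miR-200c-3p, had log2 fold changes of 0.72, 0.67, 0.37 and 0.05 at 0.4 ppm against air. At 0.8 ppm against air they had 0.51, 0.18, -0.16 and 0.04 (limma adjusted p of 0.784 or more throughout in the main fit). With library weights, limma called miR-429 at 0.4 ppm against air (log2 fold change 0.877, adjusted p = 0.0468), beside 0.491% of the 407. miR-34c-5p, the most abundant sperm miRNA, had -0.44 ± 0.18 and -0.10 ± 0.18 (SE, limma adjusted p = 0.784 and 0.993). miR-30a-5p and miR-30c-5p, which rose with miR-375 and miR-204 in the sperm of stressed mice, had 0.12 ± 0.19 and -0.18 ± 0.25 at 0.4 ppm and -0.16 ± 0.19 and 0.18 ± 0.25 at 0.8 ppm (SE, limma adjusted p of 0.92 or more). A further list was picked by name as possible cluster neighbours, and 7 of its rows were tested. None passed, beside 0% of the 407. Of these rows, miR-362-3p, miR-500-3p and miR-501-3p lie within Clcn5, as miR-532 does. The others, for miR-29b, miR-365 and miR-455, were not shown to neighbour a member. The positions used were on chromosome 4 for miR-29b-3p, chromosome 10 for miR-365-3p and chr5:81704881-81704902 for miR-455-3p. At an unadjusted limma p under 0.05 there were 0 of 7 at 0.4 ppm and at 0.8 ppm against air, beside 5.41% and 2.21%. The Clcn5 neighbours of miR-532 were far lower than miR-532-5p at 146 ± 32.7 normalised reads, with 4.45 ± 2.92 for miR-362-3p, 2.74 ± 2.03 for miR-501-3p and 0.808 ± 0.958 for miR-500-3p (SD, n = 23).

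Finally, the 3 abundant arms were set beside every other tested miRNA for likeness over the 23 rats, as Pearson's r of log2(value + 1) less its group mean. These are descriptions of the closest of many pairs, so no p is given, and all values of 1 rat share a library and its scaling. miR-375-3p was most like miR-191a-5p (r = 0.868, Spearman's rho = 0.788) and miR-146b-5p (r = 0.839, rho = 0.71). Without the 2 rats farthest from the median of miR-375-3p, 0.4 ppm replicate 5 and 0.8 ppm replicate 5, r was 0.793 and 0.819. miR-204-5p was most like miR-323-3p (r = 0.861, rho = 0.891; 0.824 without its 2 farthest rats) and miR-184 (r = 0.798, rho = 0.657; 0.702). miR-532-5p had no match as close: the highest were miR-25-3p (r = 0.586, rho = 0.72; 0.596) and miR-466c-5p (r = 0.567, rho = 0.449; 0.238 without its 2 farthest rats, so that likeness rests on them). The 3 arms did not follow one another closely. For miR-204-5p and miR-375-3p r was 0.424 and rho 0.26, with r at 0.335 without the 2 farthest rats. For miR-204-5p and miR-532-5p r was -0.277 and rho -0.297. For miR-375-3p and miR-532-5p r was -0.165 and rho -0.442. The middle 50% of r over all pairs of tested miRNAs lay between -0.214 and 0.23, and no such range was computed for rho.

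**Figure D5:**
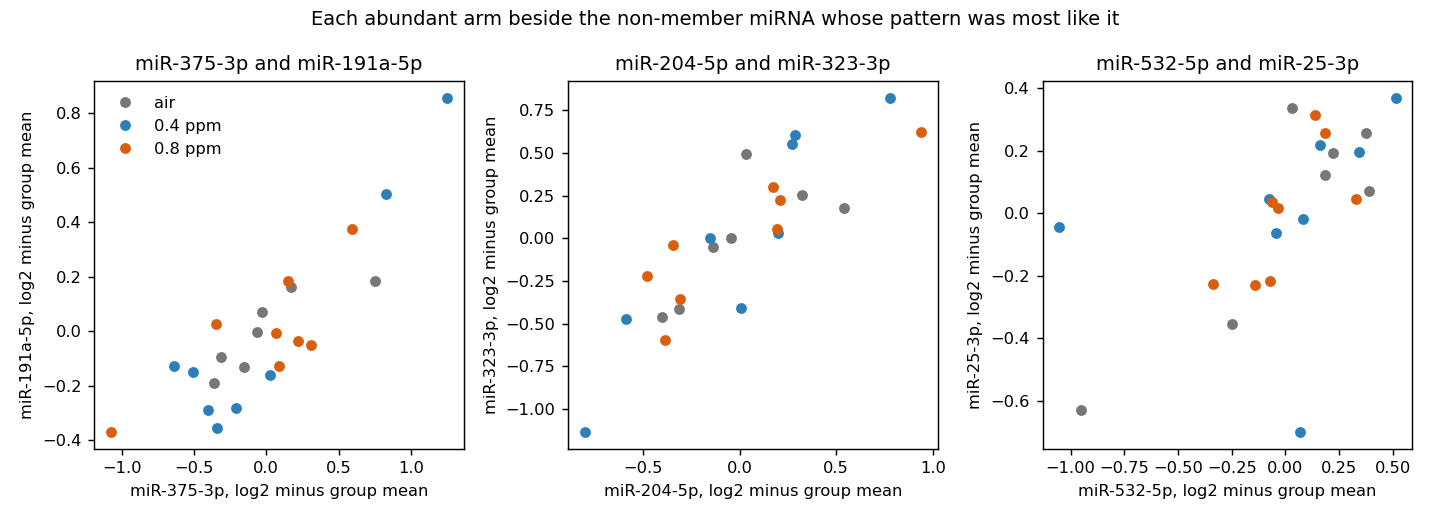
Each point is 1 rat, with the log2 value less its group mean for an abundant arm (x axis) and for the non-member miRNA most like it (y axis), coloured by exposure group. miR-375-3p with miR-191a-5p and miR-204-5p with miR-323-3p lie along a line in all 3 groups, and miR-532-5p with miR-25-3p scatters more.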

How the data were processed

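Small RNA of sperm from 23 rats was analysed from the deposited miRNA table. Partek and Bowtie 1.0.0 are listed in the submitters' processing notes, as is the build rn6. No source used here states the counting or scaling steps. The authors deposited a normalised read signal, 1 column per rat, and each column was matched to a labelled rat. The deposited values were whole multiples of 1 step per library: of the 266 to 318 values below 500 reads in each library, 100% came out whole within 0.1 of a read. Levels of different miRNAs can also reflect unequal capture by the library kit, which was not measured.

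From these values, the 407 miRNAs above 0 in at least 8 samples were tested on log2(value + 1) with limma 3.58.1 (R 4.3.3), all 3 groups in 1 model, trend and robust options on, two-sided, adjusted by Benjamini-Hochberg over the 407 at 0.05. Intervals are at 95%. The log2(value + 1) scale understates the change of low miRNAs. Arm ratios, log2(5p + 1) minus log2(3p + 1), were fitted the same way over 111 hairpins. The code was tested on simulated data. edgeR 4.0.16 (quasi-likelihood) and DESeq2 1.42.0 on recovered reads, other pseudocounts, filters, scalings, weights and a depth covariate, and leaving out each rat were the alternatives. Sheet numbers in the labels repeat between rats, which may mean more than 1 sequencing sheet; none is stated for any rat, and a run effect was not tested. Intervals from reads cover counting error only. Members and lists were chosen with earlier results of these data known. Every member is named; arms with an air mean of at least 100 have their 2 most alike non-members named. Other lists are described by counts and medians. Leukocyte (5 of 5 with a row) and erythroid (2 of 3) markers held at most 0.122% and 0.141% of the table in any library.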

Additional observations from a re-analysis of the deposited data

Results flagged for a closer look

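Within a group, the value farthest from the others was compared with the 95% critical value of Dixon's gap test, over 33 groups of values (8 arms and 3 arm ratios in each of 3 groups). Here 7 values were flagged. The test flags about 1 in 20 groups by chance only if values are independent and normally distributed. These groups share libraries and arms, and several arms rest on few reads, so the 7 cannot be set against that rate. In air, miR-375-3p in replicate 6 stood at 24563 normalised reads, beyond the other 6 rats at 11344 to 16427. At 0.4 ppm, miR-204-3p in replicate 2 stood at 32.4, beyond the other 7 at 2.03 to 13.6. In 0.4 ppm replicate 6, a library of 251123 reads, miR-29c-3p stood at 31.1, beyond 5.06 to 15.5, and the log2 ratio of miR-32-5p to miR-32-3p at 0.44, beyond -2.14 to -0.94. At 0.8 ppm, miR-29c-3p in replicate 5, the shallowest library, stood at 0, below 14.0 to 22.4. In 0.8 ppm replicate 7, miR-204-5p stood at 2005, beyond 749 to 1208, and the log2 ratio of miR-532-5p to miR-532-3p at 4.55, beyond 3.19 to 3.73. The part of depth or cell makeup in these values was not tested.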

How the results depend on the processing

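No setting called any of the 8 arms or any arm ratio: 0 passed under each of the 11 alternatives for the miRNA fit, the 3 for the arm fit, and the 23 fits that left out 1 rat. Over all miRNAs, library weights called 2 at 0.4 ppm and 3 at 0.8 ppm against air, none of them among the 8. These were miR-3590-5p and miR-429 at 0.4 ppm, and miR-17-2-3p, miR-471-5p and miR-741-3p at 0.8 ppm. The estimate of miR-32-5p moved to 0.72 at 0.8 ppm with weights and 0.95 at 0.4 ppm with read total as covariate, both against air (adjusted p = 0.256 and 0.985). Estimates near 0 changed sign, none past the threshold. At 0.4 ppm against air, miR-204-5p was 0.087 with values scaled to the table total and 0.013 with DESeq2, miR-29c-3p was 0.035 scaled to the total, 0.213 with read total as covariate and 0.002 with DESeq2, and miR-532-5p was -0.023 with library weights. At 0.8 ppm against air, miR-29c-3p was 0.045 with pseudocount 5, 0.33 with weights, 0.24 with edgeR and 0.30 with DESeq2, miR-532-3p was 0.008 scaled to the total, and miR-375-3p was 0.13 with weights. At 0.8 ppm against 0.4 ppm, miR-29c-3p was 0.079, 0.385, 0.258 and 0.294 with the same 4 settings, miR-204-5p was 0.01 with quantile normalization and 0.041 with read total as covariate, and miR-375-3p was -0.005 with edgeR. With 1 rat left out, values that crossed 0 ran, at 0.4 ppm against air, from -0.138 to 0.087 for miR-204-5p, -0.24 to 0.10 for miR-29c-3p and -0.10 to 0.21 for miR-532-5p; at 0.8 ppm against air, from -0.25 to 0.40 for miR-29c-3p, -0.13 to 0.11 for miR-375-3p and -0.18 to 0.17 for miR-532-3p; and at 0.8 ppm against 0.4 ppm, from -0.205 to 0.041 for miR-204-5p, -0.23 to 0.47 for miR-29c-3p and -0.016 to 0.208 for miR-532-5p. The cause was not tested. For miR-29c-3p at 0.8 ppm against air, the sign of the main fit reversed without the library at 0. With that library kept, it also reversed with pseudocount 5, weights, edgeR and DESeq2, so the sign depends on both. No paired analysis was possible because the replicate numbers follow accession order and pair no rats. In the 5 arms with a median of 5 to 41 reads, read counting alone would give 17.9% to 75.2% of the variance within groups.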
